A study of Mus musculus with 12 samples.

Results

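The cortex of mice labelled Tet1 KO was compared with that of mice labelled WT, gene by gene, in 4 RNA libraries of each genotype. All 21713 gene symbols that stand on a single row of the table were taken, out of 21769 rows, and 8 of the 12 libraries of the series belong to this comparison. The other 4 libraries carry the genotype HxD, a second Tet1 mutant, and are used for the spread between libraries and for side-by-side values. The tissue is whole cortex of adult mice in every group, and the labels name no treatment, sex, exact age or strain. They do not say how the KO allele was made, in which cells Tet1 is lost, or whether each library came from its own animal. The p-values therefore set the differences only against the spread of these libraries, HxD included, and that spread may be technical.

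Here a gene is called graded where its estimated count lay above 0 in all 8 WT and KO libraries. There were 10552 graded genes, and 10080 of them passed the filter on low counts and were tested. A further 5660 symbols were at 0 in all 8 libraries and 5501 in some of them, and 1613 tested genes were not graded. The split was made because a 0 in this table can be a failed estimate: Gapdh, a glycolytic enzyme of every cell, is listed at 0 throughout.

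TET1 is a dioxygenase that oxidises 5-methylcytosine in DNA, the first step of active demethylation, and it also binds chromatin complexes such as Polycomb and SIN3 through parts outside its catalytic domain. In brain it has been studied mainly in neurons, in relation to activity-induced genes and memory. A full knockout removes both the enzyme and the scaffold, and the title of the study sets these functions against each other.

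Tet1 was listed at 0 in WT 1 to 4 and in KO 1 to 4, so the knockout label could not be checked from its own gene. Tet3, a related dioxygenase, was likewise listed at 0 in all 8 libraries. Tet2, the remaining family member, stood at 42.1, 41.2, 31.7 and 36.6 CPM (estimated counts divided by the library total, scaled by TMM factors and expressed per 1e6) in WT 1 to 4 and at 45.6, 38.3, 21.1 and 42.5 in KO 1 to 4. The groups overlapped, with a log2 fold change of -0.04 ± 0.33, and its sign turned in 4 of 26 other settings. Here and below, ± is the size of the log2 fold change over the square root of F from edgeR's quasi-likelihood test. It only approximates a standard error and can understate the error of genes on few counts.

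Estimated counts summed to between 8310783 and 10915574 per WT library and between 5791642 and 9535409 per KO library, so the shallowest libraries were KO 1 and KO 4. Markers of cortical excitatory neurons were present in every library, with 12585 to 33826 estimated counts of the vesicular glutamate transporter Slc17a7 and 1115 to 2725 of the cortical transcription factor Tbr1. The choroid plexus marker Folr1 was listed at 0 in all 8 libraries, and Ttr, which is abundant there, held 224 counts in WT 1 and 0 to 29 in the others. The 18 tested markers of striatal projection neurons, the cells next to the cortex, summed to 997 to 1539 CPM in WT and 698 to 1189.8 in KO. Their dopamine receptor Drd1 was listed at 0 in WT 2 and in KO 1 to 3. Summed markers of hippocampus (195 to 283 CPM in WT and 192 to 259 in KO) and of thalamus (74.4 to 147 CPM in WT and 115 to 178 in KO) overlapped between the groups, as did 5 blood genes (258 to 562 CPM in WT and 348 to 457 in KO).

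Most graded genes differed little between the genotypes. The log2 fold change of KO against WT had a median of 0.02, and 53.01% of the 10080 tested graded genes stood above WT. The difference was under 0.25 in size for 62.64% and over 1 for 4.048%. edgeR's quasi-likelihood test at an adjusted p below 0.05 called 8 graded genes (0.0794% of those tested), of which 5 rose (0.0496%) and 3 fell (0.0298%). At an unadjusted p below 0.05 there were 988 (9.80%), 475 above WT (4.71%) and 513 below (5.09%). The 4 libraries of one genotype lay wholly above the 4 of the other for 738 genes (7.32%), 360 with KO higher (3.57%) and 378 with KO lower (3.75%). Without the filter on low counts this last split was 271 to 483. Among the 738 the median log2 fold change was 0.48 for the higher and -0.46 for the lower genes.

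The 8 calls depend on the tool and on the libraries in the fit. limma-voom called 0 graded genes with 1021 at an unadjusted p below 0.05, edgeR fitted to only the WT and KO libraries called 0 with 1112, and DESeq2's Wald test over the 12 libraries gave 214 calls, the 8 among them. With 1 library left out, edgeR called 20 without WT 4 (7 of the 8 among them), 7 without KO 1 (4 of the 8), 7 without KO 2 (5) and 6 without HxD 1 (5) or HxD 3 (4). It called 4 without WT 1 (2 of the 8), WT 3 (3), KO 3 (3), KO 4 (3) or HxD 4 (4), 3 without HxD 2 (3) and 2 without WT 2 (2). With a mean of at least 5 CPM required, 1 was called.

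Among the genes that rose, Cebpd encodes a C/EBP transcription factor of stress and inflammatory responses. It stood at 6.62, 7.998, 6.93 and 9.82 CPM in WT 1 to 4 and at 24.7, 26.9, 19.7 and 18.8 in KO 1 to 4. Every KO library lay above every WT library, with a log2 fold change of 1.52 ± 0.24 and an adjusted p of 0.0453. HxD averaged 10.95 CPM, and KO against HxD had an adjusted p of 0.0997, in a comparison that called 0.863% of tested graded genes.

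Dnm1l encodes the GTPase that divides mitochondria and peroxisomes. Its WT libraries stood at 9.24, 6.09, 5.35 and 10.3 CPM and its KO libraries at 19.9, 18.0, 31.7 and 22.7. The groups did not overlap, and the gene rose with a log2 fold change of 1.57 ± 0.24 (adjusted p = 0.0341). Cnot2, a structural subunit of the CCR4-NOT mRNA deadenylase, stood at 0.913, 0.571, 1.09 and 0.802 CPM in WT and at 10.3, 3.21, 4.81 and 4.61 in KO, where KO 1 was the highest. It rose with a log2 fold change of 2.74 ± 0.43 (adjusted p = 0.0418) from 6 to 9 estimated counts per WT library.

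Both other genes that rose lay near the floor of the table. Klhdc2, a substrate receptor of cullin ubiquitin ligases that reads protein C-terminal ends, stood at 1.03, 1.24, 1.09 and 1.10 CPM in WT and at 2.40, 3.74, 2.03 and 3.07 in KO (log2 fold change 1.31 ± 0.19, adjusted p = 0.0242). Mtf2, a Polycomb-like subunit that brings PRC2 to unmethylated CpG islands, stood at 0.456, 0.286, 0.365 and 0.702 CPM in WT and at 1.54, 2.40, 1.71 and 1.37 in KO (log2 fold change 1.93 ± 0.28, adjusted p = 0.0251). Its estimated counts were 4, 3, 3 and 7 in WT and 9, 18, 16 and 8 in KO. Klhdc2 had 9, 13, 9 and 11 estimated counts in WT and 14, 28, 19 and 18 in KO. The spread behind both p-values came from a fit that includes HxD, and edgeR on only the WT and KO libraries called neither gene. In HxD the averages were 255 CPM for Klhdc2, 43.4 for Mtf2 and 129 for Dnm1l, far above both WT and KO. Whether reads of the HxD libraries were assigned to genes as in WT and KO is not stated in the labels, so HxD levels this far away may not be comparable, which was not tested. Of all 10552 graded genes, 23 were listed at 0 in all 4 HxD libraries.

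Tcea1, the elongation factor TFIIS that restarts stalled RNA polymerase II, fell furthest. It stood at 20.5, 15.4, 18.5 and 15.2 CPM in WT and at 1.199, 0.534, 0.642 and 1.71 in KO, on 4 to 10 estimated counts per KO library. The groups were far apart, with a log2 fold change of -4.12 ± 0.30 and an adjusted p of 5.1e-04.

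Dnajc13, a co-chaperone of endosomes, stood at 9.47, 2.95, 9.601 and 9.82 CPM in WT and at 0.856, 0.802, 0.962 and 0.854 in KO. WT 2 lay well below the other WT libraries and still above all KO libraries, and the gene fell with a log2 fold change of -3.17 ± 0.35 (adjusted p = 0.00663). Mcfd2, which with a lectin carries clotting factors out of the endoplasmic reticulum, stood at 36.7, 24.1, 9.97 and 23.8 CPM in WT and at 2.40, 3.07, 1.60 and 3.07 in KO. It fell with a log2 fold change of -3.22 ± 0.46 (adjusted p = 0.0254), and WT 3 was the lowest WT library. HxD averaged 106 CPM for Tcea1, 83.7 for Dnajc13 and 86.5 for Mcfd2, levels above WT in each case and under the same limit. Whether reads of these genes were assigned alike in WT and KO was not tested either. Klhdc2, Mtf2, Cnot2, Tcea1 and Dnajc13 did not meet the rule of at least 10 counts in all 8 libraries and under 4-fold within a genotype. Over the other settings, Tcea1 lost its call in 3 of 26, Dnajc13 in 3 of 25, Klhdc2 in 10 of 25, Mtf2 in 12 of 25, Mcfd2 in 13 of 26, Dnm1l in 16 of 26, Cnot2 in 17 of 25 and Cebpd in 18 of 26.

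**Figure D1:**
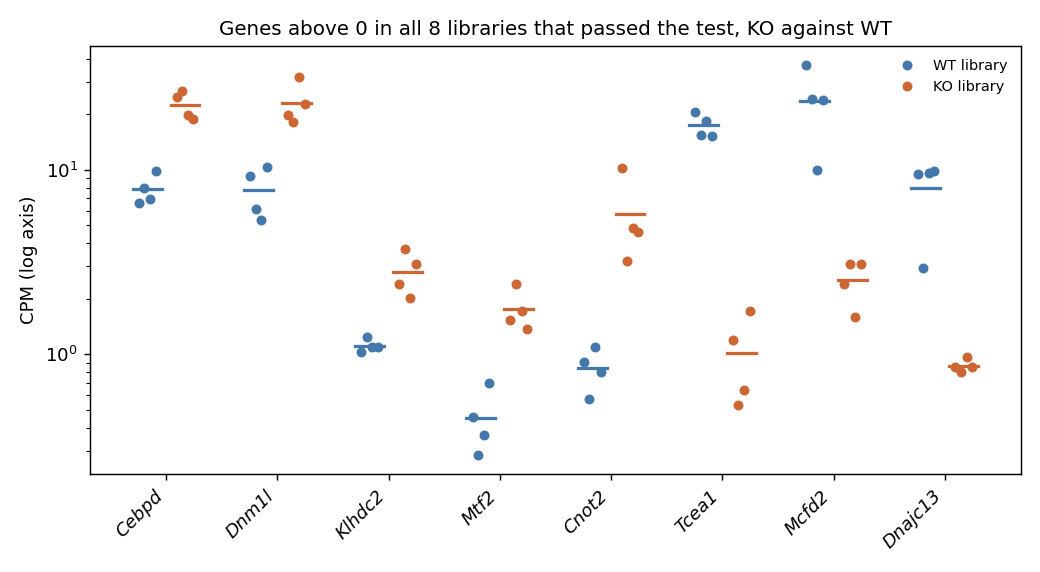
CPM on a log axis for the 8 graded genes that passed edgeR's test, with 1 point per library, WT in blue and KO in orange, and a bar at each group's mean. For all 8 genes the points of the genotypes do not overlap, and Klhdc2, Mtf2, Cnot2, Tcea1 and Dnajc13 have a group near or below 1 CPM.

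Below the threshold, genes with no overlap between the genotypes included several regulators of mRNA and signalling. Clk4, a kinase that phosphorylates SR splicing factors, stood at 12.3, 9.33, 7.90 and 10.8 CPM in WT and at 23.3, 22.4, 25.1 and 16.6 in KO (log2 fold change 1.11 ± 0.19, adjusted p = 0.0687). Pcnx3 stood at 2.21 to 3.54 CPM in WT and 12.0 to 44.1 in KO, and Cc2d1b, an endosomal sorting factor, at 1.58 to 3.08 CPM in WT and 3.74 to 7.69 in KO (adjusted p = 0.0706 and 0.0817). Pcnx3 was listed at 0 in every HxD library, and Cc2d1b averaged 26.2 CPM there. Osbpl6, a lipid transfer protein, had 2.57, 64.9, 73.1 and 7.17 CPM in KO 1 to 4 against 0.228 to 0.602 in WT, so that its KO libraries themselves ranged widely (adjusted p = 0.0628). Ltk, a receptor tyrosine kinase, stood at 0.228 to 1.70 CPM in WT and 4.11 to 9.41 in KO.

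On the lower side, Ptpn23, a phosphatase-like protein of endosomal sorting, stood at 77.5, 84.0, 78.0 and 71.4 CPM in WT and at 55.8, 59.3, 54.3 and 62.4 in KO (log2 fold change -0.42 ± 0.08, adjusted p = 0.0834). Fry, a scaffold of NDR kinases in dendrite growth, stood at 279, 265, 236 and 210.0 in WT and at 162, 134, 118 and 173 in KO (log2 fold change -0.76 ± 0.14, adjusted p = 0.0932). Neither gene overlapped between the genotypes, and both differences were modest in size.

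Ttc7b, part of the complex that makes phosphatidylinositol 4-phosphate at the plasma membrane, stood at 156, 142, 90.5 and 62.6 CPM in WT and at 50.5, 35.1, 41.1 and 38.9 in KO (log2 fold change -1.45 ± 0.26, adjusted p = 0.0817). Cyb561, a transmembrane electron carrier of secretory vesicles, stood at 98.9 to 119 CPM in WT and 75.7 to 88.7 in KO, and the atlastin GTPase Atl1, which fuses endoplasmic reticulum tubules, at 193 to 231 CPM in WT and 145 to 179.6 in KO. Apc, the scaffold that targets beta-catenin for destruction, stood at 45.9 to 102 CPM in WT and 9.62 to 34.8 in KO, and the histone chaperone Nap1l1 at 10.2 to 33.0 CPM in WT and 1.39 to 5.48 in KO (adjusted p = 0.137 and 0.107). None of the genes in these 3 paragraphs passed the test.

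Genes that glucocorticoids induce stood above WT in most members. Glucocorticoids are adrenal stress hormones with a daily rhythm, and their receptor switches on feedback inhibitors of inflammation, kinases and clock genes within hours. Of 28 graded members of the list, 25 stood above WT with a median log2 fold change of 0.54, beside 53.01% and 0.02 over all tested graded genes. Members at an unadjusted p below 0.05 numbered 14 above WT and 0 below, and 11 had every KO library above every WT library. Over all tested graded genes these shares were 4.71%, 5.09% and 3.57%. They are also the background for such counts in the lists below, with 3.75% for every KO library below every WT library. Cebpd alone was called. The list score, in which log2(CPM + 0.5) is centred per gene and the members' median taken, was -0.38, -0.17, -0.44 and -0.09 in WT 1 to 4 and 0.53, 0.22, 0.17 and 0.21 in KO 1 to 4. KO 1 stood apart at the top, and the groups did not overlap. Without KO 1 the median was 0.43, and it stayed between 0.43 and 0.60 whichever library was left out.

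Tsc22d3 (GILZ), an anti-inflammatory leucine zipper protein, stood at 31.0, 61.4, 34.4 and 54.4 CPM in WT and at 206, 173, 114 and 120.1 in KO (log2 fold change 1.76 ± 0.33, adjusted p = 0.094). The lowest KO library lay well above the highest WT library. HxD averaged 48.1 CPM, and KO stood above HxD with a log2 fold change of 1.67 and an adjusted p of 0.0397.

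Sgk1, the serum and glucocorticoid regulated kinase, stood at 34.3, 49.9, 10.7 and 25.9 CPM in WT and at 209, 106, 65.9 and 136 in KO (log2 fold change 2.10 ± 0.48, adjusted p = 0.161). KO 1 was the highest library and KO 3 the lowest of its group. Nfkbia, the inhibitor that holds NF-kB in the cytoplasm, stood at 31.9, 42.4, 27.3 and 36.2 in WT and at 64.6, 53.4, 52.3 and 65.4 in KO (log2 fold change 0.77 ± 0.14, adjusted p = 0.0817). Both genes were free of overlap between the genotypes. The glucocorticoid receptor gene Nr3c1, named outside the rule for named genes, was listed at 0 in 7 of the 8 libraries with 13 counts in KO 4, and the mineralocorticoid receptor gene Nr3c2 at 0 in all 8, so neither could be compared.

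The circadian clock is a loop in which BMAL1 and CLOCK or NPAS2 activate the Per, Cry, Nr1d and Bhlhe repressors, and PAR bZIP factors such as DBP and HLF carry the rhythm to output genes. Of 20 graded clock genes, 16 stood above WT (median 0.28), 4 at an unadjusted p below 0.05 and 1 on the lower side at that level. By role, 10 of 11 repressors stood above WT (median 0.37), as did all 3 outputs (median 0.33), while 2 of 3 activators stood below (median -0.36). The score was -0.04, -0.03, -0.18 and -0.02 in WT and 0.27, 0.11, 0.03 and 0.18 in KO, with no overlap, KO 3 the lowest KO library and WT 3 the lowest of all. Without KO 1 the median was 0.19. Activator scores were 0.07, 0.32, -0.08 and 0.17 in WT 1 to 4 and -0.37, -0.28, 0.08 and 0.33 in KO 1 to 4. These groups overlapped, and KO 4 was the highest library. Over the 2 activators with at least 10 counts in all 8 libraries and under 4-fold within a genotype, the median was -0.06.

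Bhlhe41, a repressor that competes for E-boxes, stood at 55.4, 56.9, 55.3 and 85.6 CPM in WT and at 89.7, 105, 97.2 and 87.0 in KO. WT 4 lay apart from the other WT libraries and just below the lowest KO library (log2 fold change 0.58 ± 0.14, adjusted p = 0.199). Dbp stood at 86.1, 125, 83.9 and 154 in WT and at 191, 245, 219.9 and 187 in KO (log2 fold change 0.91 ± 0.22, adjusted p = 0.199), and Per1, which is also a glucocorticoid target, at 153, 150.1, 67.9 and 115 and 329, 236, 168 and 186 (log2 fold change 0.92 ± 0.29, adjusted p = 0.327). Neither overlapped. Hlf, the most abundant member at 242 to 427 CPM in WT and 379.8 to 471 in KO, overlapped between the genotypes.

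Neuronal activity induces a first set of transcription factors within minutes and then effectors that act at synapses and in signalling. Of 23 graded activity-induced transcription factors, 18 stood above WT with a median of 0.54, but only 2 reached an unadjusted p below 0.05 and 2 had no overlap. The score was 0.18, 0.23, -0.75 and -0.60 in WT 1 to 4 and 0.60, 0.31, 0.22 and -0.18 in KO 1 to 4. WT 3 and WT 4 were the lowest libraries, while WT 1 and WT 2 lay within the KO range. Leaving out 1 library gave medians from 0.37 (without KO 1) to 0.76 (without WT 2).

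Fosl2, an AP-1 subunit, stood at 65.3, 78.2, 65.5 and 52.5 CPM in WT and at 152, 119, 80.5 and 87.3 in KO (log2 fold change 0.75 ± 0.31, adjusted p = 0.482), with no overlap. The orphan receptor Nr4a1 stood at 131, 196, 36.3 and 50.02 in WT and at 341, 282, 267 and 165 in KO, where the lowest KO library lay below the highest WT library (adjusted p = 0.525). Egr1, the most abundant of the list, stood at 277 to 572 CPM in WT and 431 to 871 in KO, which overlapped.

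Among the effectors of activity, 17 of 26 graded members stood above WT (median 0.13, from 0.064 without WT 4 to 0.220 without WT 2 with 1 library left out). Signalling members had 11 of 12 above WT and a median of 0.47, against 6 of 14 and -0.13 for synaptic and secreted members. Signalling scores were -0.18, 0.11, -0.94 and -0.32 in WT 1 to 4 and 0.55, 0.36, 0.26 and -0.00 in KO 1 to 4. WT 3 was the lowest library, and KO 4 lay below WT 2. Scores of the synaptic and secreted members overlapped as well. Tiparp, an ADP-ribosyltransferase that restrains the aryl hydrocarbon receptor, stood at 21.1, 29.7, 16.9 and 21.5 CPM in WT and at 61.5, 60.4, 45.4 and 39.6 in KO (log2 fold change 1.21 ± 0.22, adjusted p = 0.0817). Sorcs3, a sorting receptor of the postsynaptic density, went the other way at 91.4, 103, 78.0 and 70.9 in WT and 52.6, 56.9, 63.6 and 74.7 in KO (adjusted p = 0.269), with overlap through KO 4.

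Dual-specificity phosphatases switch off the MAP kinases that such stimuli activate. Dusp1, which is induced by glucocorticoids as well as by activity, stood at 27.6, 11.2, 15.8 and 33.8 CPM in WT and at 104, 87.5, 108 and 61.7 in KO (log2 fold change 2.03 ± 0.37, adjusted p = 0.144). It was listed at 0 in every HxD library. Dusp5, the nuclear phosphatase of ERK, stood at 14.0, 21.9, 12.0 and 15.8 in WT and at 50.4, 52.0, 39.0 and 37.4 in KO (log2 fold change 1.48 ± 0.26, adjusted p = 0.0785). Both were free of overlap. Spred3, an inhibitor of the Ras pathway, stood lower at 63.0 to 95.8 CPM in WT and 52.8 to 62.9 in KO. Over all 21 graded members of the MAP kinase feedback list the median was 0.07, with 14 above WT, and it ranged from 0.002 without KO 1 to 0.139 without WT 4.

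**Figure D2:**
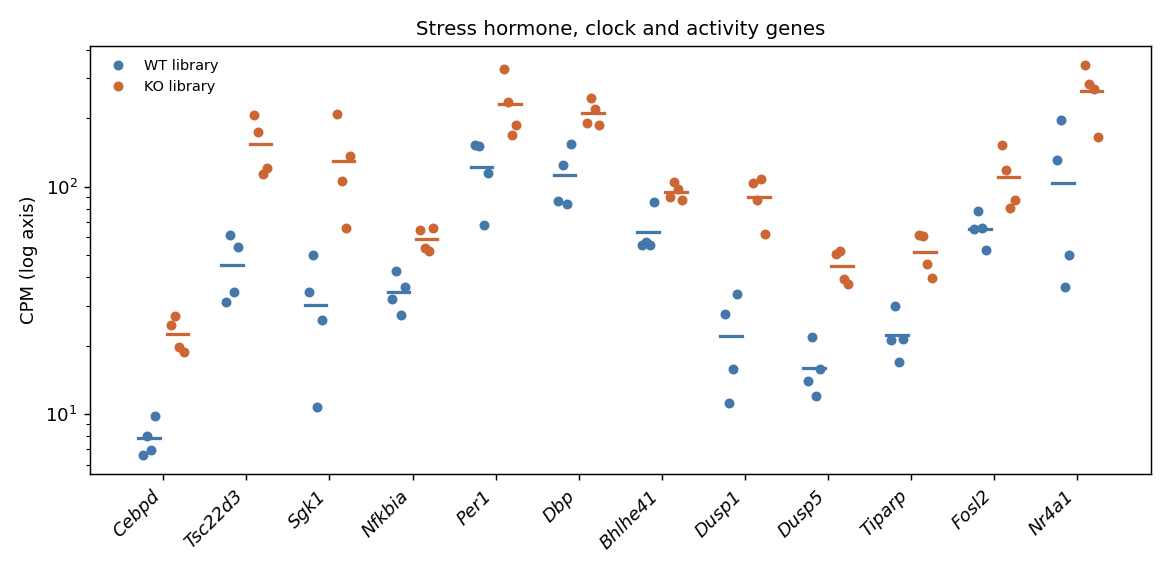
CPM on a log axis for 12 stress hormone, clock and activity genes, with 1 point per library, WT in blue and KO in orange, and a bar at each group's mean. KO points lie above WT points for every gene shown except Nr4a1, whose groups overlap, and WT libraries spread widely for Sgk1, Dusp1 and Nr4a1.

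Promoters of 3 genes named above are shown because they hold the letters of the E-box or of the cAMP response element (CRE). Clock activators and repressors bind the E-box, and the activity factor CREB binds the CRE. Dusp1 and Bhlhe41 belong to lists above, while Clk4 is not on the glucocorticoid, clock or activity lists. The sequences are those of RefSeq on GRCm38.p6, 5′ to 3′ on the strand of the gene, from 250 bases before the start to 50 after it, with matches in capitals. Dusp1 lies at chr17:26508423-26508722 on the minus strand, Bhlhe41 at chr6:145865371-145865670 on the minus strand and Clk4 at chr11:51262864-51263163 on the plus strand. The build is that of the reference and not a statement on the files.
Dusp1: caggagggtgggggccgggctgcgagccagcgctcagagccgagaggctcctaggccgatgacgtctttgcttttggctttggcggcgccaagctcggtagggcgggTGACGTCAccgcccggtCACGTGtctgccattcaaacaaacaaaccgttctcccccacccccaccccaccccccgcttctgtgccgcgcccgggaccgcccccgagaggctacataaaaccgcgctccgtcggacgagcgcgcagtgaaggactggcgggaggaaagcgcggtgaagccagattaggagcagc
Bhlhe41: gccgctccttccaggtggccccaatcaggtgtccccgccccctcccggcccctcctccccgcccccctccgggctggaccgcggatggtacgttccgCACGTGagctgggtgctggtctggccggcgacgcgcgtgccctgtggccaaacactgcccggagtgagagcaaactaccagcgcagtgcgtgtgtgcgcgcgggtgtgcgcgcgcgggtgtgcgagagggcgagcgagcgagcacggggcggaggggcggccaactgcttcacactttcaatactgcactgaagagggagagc
Clk4: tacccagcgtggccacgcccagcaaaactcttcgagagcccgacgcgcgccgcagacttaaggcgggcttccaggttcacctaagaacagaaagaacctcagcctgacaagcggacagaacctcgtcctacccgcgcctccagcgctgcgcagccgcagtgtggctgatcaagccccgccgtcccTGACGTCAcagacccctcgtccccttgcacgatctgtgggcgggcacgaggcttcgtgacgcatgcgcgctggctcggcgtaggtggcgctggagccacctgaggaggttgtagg

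Dusp1 held a CRE whose first base is 143 bases upstream of the start and an E-box at 126 bases upstream, Bhlhe41 an E-box at 153 and Clk4 a CRE at 65. The letters searched on both strands were CACGTG (E-box), TGACGTCA (CRE), TTATGTAA (D-box) and TGACTCA (AP-1), along with the palindromic glucocorticoid response element and the kappa-B site of NF-kB, and no motif contains another. Over 22862 promoters, 7.12% held the E-box, 1.85% the CRE, 0.997% the D-box, 0.136% the NF-kB site and 5.17% the AP-1 site, and 0 held the palindromic glucocorticoid element. Among 6581 promoters of graded genes the E-box was in 10.2% and the CRE in 3.59%. The E-box was in 3 of 12 promoters of clock genes (Bhlhe41, Ciart and Cry1) and in 3 of 17 of glucocorticoid-induced genes (Dusp1, Fkbp5 and Klf15). It was in 4 of 14 of activity-induced effectors (28.6%) and in 2 of 18 of activity-induced transcription factors (11.1%). The CRE was in 4 of 14 promoters of activity-induced effectors (Pcsk1, Plk2, Ppp1r15a and Scg2), in 1 of 18 of activity-induced transcription factors, in 1 of 17 of glucocorticoid-induced and in 1 of 12 of clock genes. These matches describe letters in a short window and are no binding sites measured here.

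Genes of the ribosome and the respiratory chain stood above WT in most members, by small amounts. Of 78 graded cytosolic ribosomal protein genes, 74 stood above WT with a median of 0.28, and 12 of these reached an unadjusted p below 0.05. Large and small subunit genes had medians of 0.26 and 0.30. The score was -0.24, -0.40, 0.07 and 0.05 in WT 1 to 4 and 0.04, 0.40, 0.26 and -0.15 in KO 1 to 4, so WT 3 and WT 4 lay above KO 1 and KO 4 and the groups overlapped. With 1 library left out the median ranged from 0.174 without WT 2 to 0.343 without WT 4. Reads from many processed copies of these genes can be shared, so single values are uncertain.

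Rpl28 stood at 133, 122, 154 and 167 CPM in WT and at 169.7, 195, 202 and 183 in KO (log2 fold change 0.38 ± 0.12, adjusted p = 0.318). Rpl13 was at 382, 356, 439 and 447 in WT and at 477, 652, 532 and 453 in KO. Neither gene overlapped between the genotypes. Rpl4, the most abundant member, stood at 867 to 1063 CPM in WT and 1015 to 1246 in KO.

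Mitochondrial ribosomal protein genes had 53 of 67 above WT and a median of 0.12. Mrps24 stood at 8.09 to 10.1 CPM in WT and 13.3 to 16.2 in KO, while Mrps2 stood lower at 24.0 to 42.4 CPM in WT and 17.3 to 23.6 in KO, and Mrpl34 at 30.7 to 34.0 CPM in WT and 35.9 to 42.9 in KO. For translation factors the median was 0.05 and 39 of 58 stood above WT, among them the initiation factor subunit Eif3g at 83.0 to 92.4 CPM in WT and 96.2 to 109 in KO and the elongation factor Eef1a1, the most abundant, at 2249 to 2521 CPM in WT and 2301 to 2918 in KO. Proteasome subunits had 28 of 34 above WT and a median of 0.10, with the immunoproteasome subunit Psmb10 at 43.5 to 57.8 CPM in WT and 58.4 to 65.6 in KO. The median ranged, with 1 library left out, from 0.076 without KO 2 to 0.159 without KO 1 for mitochondrial ribosomal proteins, 0.020 without WT 1 to 0.057 without KO 1 for translation factors and 0.024 without KO 2 to 0.129 without KO 1 for the proteasome.

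The respiratory chain, whose nuclear-encoded subunits move electrons from NADH to oxygen, had 49 of 58 graded members above WT with a median of 0.21. By complex, 28 of 35 members of complex I, 11 of 12 of complexes II and III and 10 of 11 of complex IV stood above WT. Uqcr10 of complex III stood at 50.2, 71.0, 64.3 and 62.6 CPM in WT and at 108, 72.1, 82.6 and 94.3 in KO (log2 fold change 0.53 ± 0.15, adjusted p = 0.279), where the lowest KO library lay just above the highest WT library. Ndufs4 of complex I stood at 61.5 to 77.8 CPM in WT and 79.0 to 104 in KO and Cox8a of complex IV at 724 to 839 CPM in WT and 837 to 1058 in KO. Ndufb10 went the other way, but its WT libraries were at 118, 7.33, 7.05 and 122 CPM, a split within WT. Genes of glycolysis and the citrate cycle had 23 of 34 above WT (median 0.08), including fumarase Fh1 at 136 to 155 CPM in WT and 156 to 215 in KO and the aldolase gene Aldoc at 1391 to 1811 CPM in WT and 1590.3 to 1869.6 in KO. Leaving out 1 library gave medians of 0.135 without KO 2 to 0.248 without WT 3 for the respiratory chain and 0.035 without WT 1 to 0.081 without HxD 2 for glycolysis and the citrate cycle.

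Transcript length moved with these results. In 5 equal bins of graded genes from the shortest to the longest by their longest transcript, the median log2 fold change was 0.10, 0.04, 0.03, -0.02 and -0.08. The trend lay in WT 1, WT 2, KO 2 and KO 3, whose scores in the shortest bin were -0.09, -0.10, 0.15 and 0.11, while the other 4 libraries were flat. With each library's length trend removed, the medians were 0.16 for cytosolic ribosomal proteins, 0.03 for mitochondrial ribosomal proteins, 0.07 for the respiratory chain and 0.02 for the proteasome, all closer to 0. The lists above were little moved, at 0.49 for glucocorticoid-induced genes, 0.29 for the clock and 0.57 for activity factors. For neuronal lists described below, the medians then were -0.095 for the postsynaptic density, -0.058 for presynaptic genes and 0.003 for voltage-gated channels. They were -0.031 for GABA receptors, -0.095 for axon guidance and -0.211 for metabotropic receptors.

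**Figure D3:**
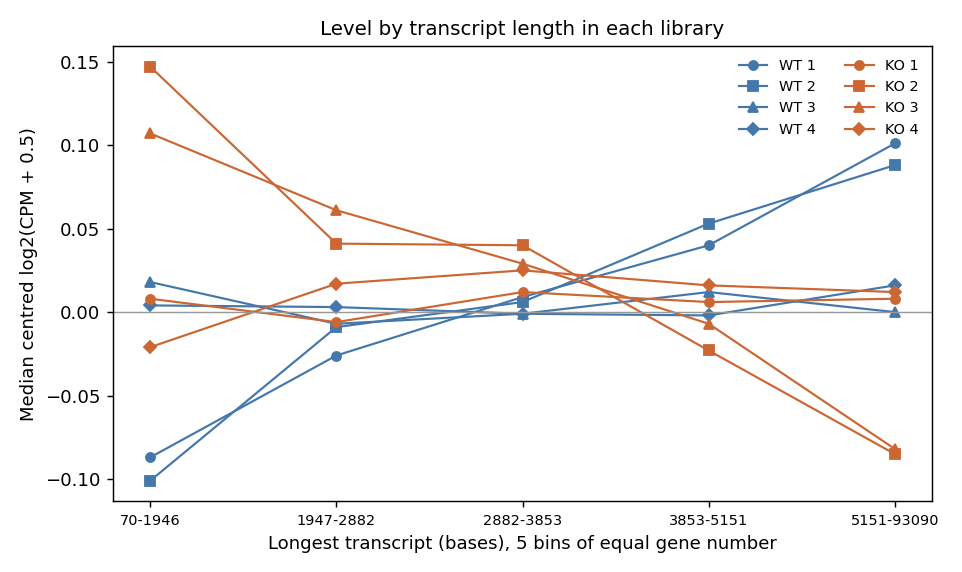
Median over graded genes of log2(CPM + 0.5), centred per gene over the 8 libraries, for 5 bins of longest transcript length in bases, with 1 line per library, WT in blue and KO in orange. WT 1 and WT 2 climb from -0.09 and -0.10 in the shortest bin, KO 2 and KO 3 descend from 0.15 and 0.11, and the other 4 libraries stay near 0.

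Among the cell types, astrocyte genes stood above WT in most members. In bulk tissue, more or fewer cells of a type cannot be told apart from more or less RNA per cell. Astrocytes recycle glutamate, buffer potassium and carry nutrients from vessels to neurons. Of 32 graded astrocyte genes, 29 stood above WT with a median of 0.27 (0.24 with the length trend removed). At an unadjusted p below 0.05 there were 10 above WT and 1 below, beside 4.71% and 5.09% of all tested graded genes. In 4 members every KO library lay above every WT library, and in 1 every KO library lay below. The score was -0.20, -0.31, -0.05 and 0.07 in WT and 0.18, 0.00, 0.08 and 0.24 in KO, where WT 4 lay above KO 2, and summed markers were 13032 to 15999.6 CPM in WT and 15596 to 18106 in KO.

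F3, tissue factor, stood at 54.6, 55.6, 62.1 and 67.7 CPM in WT and at 80.2, 87.8, 83.0 and 88.7 in KO (log2 fold change 0.50 ± 0.10, adjusted p = 0.137), with no overlap. Slco1c1, which carries thyroid hormone, stood at 71.6, 53.9, 65.1 and 60.7 in WT and at 126, 105, 92.7 and 116 in KO (log2 fold change 0.81 ± 0.29, adjusted p = 0.409), also with no overlap. The connexin Gjb6 was at 71.1, 69.3, 71.8 and 97.9 in WT, with WT 4 apart from the rest, and at 138, 113, 96.5 and 93.3 in KO. Glutamine synthetase, encoded by Glul and the most abundant member, stood at 2799 to 3572 CPM in WT and 3329 to 3973 in KO. Slc2a1, the glucose transporter of vessels and glia, is on the endothelial list and not on the astrocyte list. It stood at 127, 149, 121 and 151 in WT and at 286, 157, 153 and 190.3 in KO, with KO 1 the highest.

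Myelin genes depended on single libraries. Of 34 graded members 29 stood above WT (median 0.22), but WT 4 scored 0.60 against -0.43, -0.35 and -0.41 in WT 1 to 3 and 0.10, 0.18, 0.05 and 0.26 in KO 1 to 4, and with 1 library left out the median ranged from 0.111 without WT 1 to 0.574 without WT 4. Mobp, a structural protein of myelin, stood at 29.5, 32.9, 28.0 and 73.6 CPM in WT and at 75.5, 65.6, 49.6 and 62.2 in KO, and Qdpr, an enzyme of biopterin recycling, at 171, 159, 143 and 272 and 252, 256, 256 and 437, with KO 4 apart. Both overlapped, through WT 4. Precursor cells of the lineage had a median of 0.06 over 13 genes, which ranged from -0.105 without WT 2 to 0.10 without WT 3, among them the transcription factor Sox8 at 51.8 to 86.6 CPM in WT and 88.3 to 101 in KO and the proteoglycan Cspg4 at 31.2 to 46.2 CPM in WT and 22.2 to 29.7 in KO.

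Microglial genes stood slightly lower (15 of 23 below WT, median -0.07), with the purinergic receptor P2ry13 at 18.4 to 24.8 CPM in WT and 11.5 to 21.0 in KO and the fractalkine receptor Cx3cr1 at 54.1 to 91.4 CPM in WT and 49.0 to 72.0 in KO, both overlapping. The microglial median ranged from -0.146 without WT 2 to 0.015 without WT 3, and its sign turned without WT 3. Endothelial genes had 14 of 19 above WT and a median of 0.16, from 0.037 without KO 1 to 0.207 without WT 4 with 1 library left out, with 6 above and 2 below at an unadjusted p below 0.05. Against most of the list, the tight junction protein Cldn5 stood lower at 84.5, 60.1, 96.4 and 62.3 CPM in WT and 52.1, 42.6, 35.0 and 58.8 in KO (log2 fold change -0.69 ± 0.25, adjusted p = 0.406), with no overlap.

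The lists of general neuronal genes lay on both sides of WT. The median was 0.11 over 14 pan-neuronal genes and -0.04 over 13 genes of cortical excitatory neurons, and Snap25, a SNARE protein, stood at 3317 to 5791 CPM in WT and 4426 to 5680.1 in KO. The deubiquitinase Uchl1 was lower at 719 to 967 CPM in WT and 658 to 757 in KO and the glutamate transporter Slc17a7 at 2802, 3220.5, 2545 and 2148 CPM in WT and 2155, 1822, 2189.6 and 2266 in KO, where WT 4 lay inside the KO range. Nptx1, a pentraxin that clusters AMPA receptors, stood at 609.7 to 798 CPM in WT and 486 to 589 in KO, and Nrgn, the calmodulin-binding neurogranin and the most abundant of the list, at 1972 to 3655 CPM in WT and 2712 to 3971 in KO. Deep layer genes had a median of -0.09 over 15 genes, which turned positive without WT 3, with the subcerebral projection factor Bcl11b at 113 to 180.5 CPM in WT and 75.3 to 106 in KO. Genes of inhibitory interneurons had a median of 0.03 over 22. All 4 medians, with 1 library left out, changed sign at 1 end of their range, from -0.011 without WT 1 to 0.137 without KO 1 for pan-neuronal, -0.115 without WT 1 to 0.037 without WT 2 for excitatory, -0.228 without WT 2 to 0.050 without WT 3 for deep layer and -0.015 without WT 4 to 0.046 without WT 3 for inhibitory neuron genes.

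Ionotropic glutamate receptors and their auxiliary subunits, which carry fast excitation, stood below WT in most members. Of 23 graded members 19 were below WT with a median of -0.32 (-0.30 with the length trend removed), 6 below and 1 above at an unadjusted p below 0.05. The score was 0.16, 0.29, 0.27 and 0.07 in WT 1 to 4 and -0.14, -0.12, -0.08 and -0.07 in KO 1 to 4, with no overlap, and leaving out 1 library gave medians from -0.38 to -0.26. All 3 classes had medians below 0, at -0.55 over 4 NMDA genes, -0.31 over 14 AMPA and auxiliary genes and -0.33 over 5 kainate and delta genes. No member passed the test over all genes.

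Grin2b, the GluN2B subunit that gives NMDA receptors slow currents, stood at 1153, 1093, 913 and 727 CPM in WT and at 629.8, 458, 488 and 619 in KO (log2 fold change -0.82 ± 0.20, adjusted p = 0.19). The highest KO library lay below the lowest WT library. Shisa9, an AMPA receptor auxiliary subunit that governs short-term depression, stood at 82.7, 68.6, 82.3 and 59.7 in WT and at 45.4, 40.1, 56.0 and 33.8 in KO (log2 fold change -0.74 ± 0.21, adjusted p = 0.257), and Grik3, a kainate receptor subunit, at 177, 203, 258 and 179 and 144, 140.3, 160.2 and 164 (log2 fold change -0.43 ± 0.12). Neither overlapped. Gria2, which makes AMPA receptors impermeable to calcium and is the most abundant, stood at 823, 804, 754 and 683 in WT and 711, 789, 879 and 676 in KO, a log2 fold change of 0.00 ± 0.09, whose sign turned in 7 of 26 settings.

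Markers of striatal projection neurons, which also express such receptors, stood below WT as well. Of 14 graded members 13 stood below WT with a median of -0.79, and the scores were 0.21, 0.35, 0.80 and -0.09 in WT and 0.27, -0.69, -0.53 and -0.54 in KO, with KO 1 inside the WT range. With 1 library left out the median ranged from -1.167 without KO 1 to -0.474 without WT 3. The opioid precursor Penk stood at 58.4, 79.0, 83.4 and 57.1 CPM in WT and 49.3, 23.9, 29.3 and 37.8 in KO, Pdyn at 40.7, 36.9, 33.8 and 41.5 and 28.4, 22.7, 25.5 and 22.0, the adenylyl cyclase Adcy5 at 359.9 to 592 CPM in WT and 272 to 404 in KO and Actn2 at 6.52 to 20.1 CPM in WT and 5.98 to 9.76 in KO. Their part in the receptor result was not tested.

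Around the synapse, values stood lower in smaller numbers of genes. Metabotropic receptors had 4 of 6 below WT (median -0.20, from -0.400 without KO 4 to -0.020 without WT 2 with 1 library left out). Postsynaptic density genes had 13 of 18 below WT (median -0.16) and a median of 0.01 without KO 3, with Agap2 at 1951 to 2369.6 CPM in WT and 1450.5 to 1953 in KO, Cnksr2 at 193 to 221 CPM in WT and 141 to 194 in KO and the spine scaffold spinophilin, encoded by Ppp1r9b, at 2692 to 2898 CPM in WT and 2625 to 2919 in KO. Sipa1l1, a spine GTPase regulator, stood above WT at 17.9 to 42.2 CPM in WT and 53.9 to 86.7 in KO. Adhesion molecules of the synapse had 17 of 24 below WT (median -0.19, -0.11 with the length trend removed), with Slitrk5 at 132, 144, 116 and 121 CPM in WT and 104, 96.3, 112 and 104 in KO and the receptor phosphatase Ptprf at 111 to 185 CPM in WT and 93.4 to 112 in KO. Lrrtm2, a postsynaptic partner of neurexin, held 4, 111, 91 and 65 estimated counts in WT 1 to 4 and 2, 1, 1 and 1 in KO 1 to 4, so WT 1 lay with the KO libraries.

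On the releasing side, 23 of 40 presynaptic genes stood below WT (median -0.09, from -0.126 without WT 3 to -0.038 without WT 2 with 1 library left out). At an unadjusted p below 0.05 there were 6 below WT and 2 above. The vesicle SNARE Vamp2 stood at 1602, 1811, 1678 and 1587 CPM in WT and 1455, 1351, 1530.4 and 1466 in KO (log2 fold change -0.20 ± 0.07, adjusted p = 0.388), with no overlap. Synapsin gene Syn3 stood at 16.9 to 20.0 CPM in WT and 9.62 to 14.7 in KO, and the active zone protein Erc2 at 262, 200.1, 40.3 and 76.4 in WT, which itself ranged widely, and 5.14, 31.1, 11.02 and 24.3 in KO. GABA receptors had 5 of 14 above WT and 9 below (median -0.06), with Gabra3 at 199 to 289.5 CPM in WT and 176 to 207 in KO and Gabrb1 at 222 to 307 CPM in WT and 184 to 215 in KO among the lower ones. Voltage-gated channels had a median of -0.04 over 56 genes, and the potassium channel subunit Kcnf1 at 230.5 to 355 CPM in WT and 147 to 229.8 in KO, the sodium channel Scn7a at 4.01 to 12.1 CPM in WT and 1.37 to 2.89 in KO and the calcium channel subunit Cacnb1 at 173 to 258 CPM in WT and 148 to 209 in KO led the lower side. The median ranged, with 1 library left out, from -0.152 without WT 4 to -0.008 without KO 4 for GABA receptors and -0.167 without KO 4 to 0.061 without WT 2 for voltage-gated channels.

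Axon guidance genes had 27 of 47 below WT (median -0.12), led by the semaphorin receptors Plxna1 at 201, 232, 181 and 179 CPM in WT and 168, 146, 138 and 155 in KO and Plxna2 at 249, 302, 233 and 237 and 219, 163, 196 and 189.6 (adjusted p = 0.307 and 0.308). The neurotrophin receptor Ntrk2, which binds BDNF, stood at 616, 733, 562 and 534 in WT and 476, 393, 444 and 512 in KO, and Ntrk3, which binds NT-3, at 233, 295, 208 and 206 and 169, 169, 172 and 167 (adjusted p = 0.325 and 0.269). None of these 4 genes overlapped between the genotypes. The list of neurotrophin and growth factor receptors had 15 of 25 below WT and a median of -0.07, which ranged from -0.123 without KO 4 to -0.006 without KO 3. With the length trend removed the median was -0.04, and 12 of 25 stood above WT. At an unadjusted p below 0.05 there were 4 below and 2 above, and 1 below and 2 above with the trend removed.

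**Figure D4:**
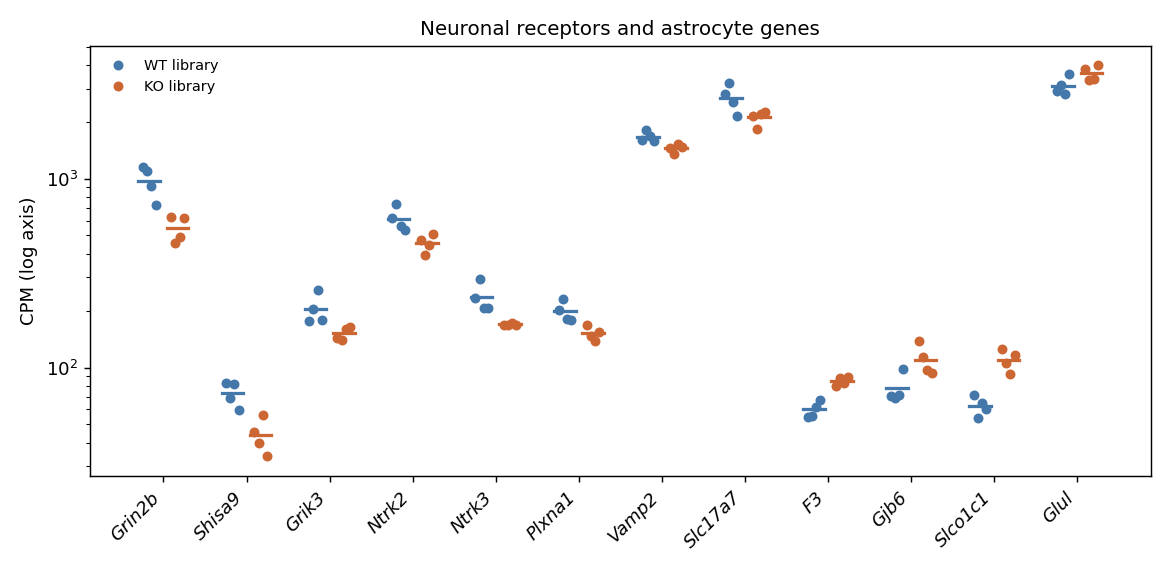
CPM on a log axis for 12 receptor, synaptic and astrocyte genes, with 1 point per library, WT in blue and KO in orange, and a bar at each group's mean. The 8 receptor and synaptic genes from Grin2b to Slc17a7 have lower KO means, and F3, Gjb6, Slco1c1 and Glul have higher KO means.

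Chromatin genes were examined because TET1 acts there. Genes of the TET proteins, DNA methylation and its readers had 9 of 15 below WT (median -0.09), with the methyl-CpG reader Mbd2 above WT at 52.6, 52.7, 63.2 and 63.2 CPM in WT and 77.2, 72.1, 68.9 and 73.5 in KO (log2 fold change 0.33 ± 0.09, adjusted p = 0.231). Subunits of Polycomb, SIN3 and NuRD had 25 of 39 above WT with a median of 0.20, which ranged from 0.073 without KO 2 to 0.205 without HxD 2 and was 0.024 over the steady members, those with at least 10 counts in all 8 libraries and under 4-fold within a genotype. Beside Mtf2, the chromodomain protein Cbx8 stood at 14.0 to 16.6 CPM in WT and 19.9 to 24.8 in KO and the SIN3 subunit Sap30 at 7.82 to 10.5 CPM in WT and 13.2 to 20.2 in KO, both with no overlap and adjusted p of 0.242 and 0.285. Histone methyltransferases and demethylases had a median of -0.02 over 34 genes, with the H3K27 demethylase Kdm6b at 33.7 to 48.9 CPM in WT and 41.4 to 73.8 in KO. The median ranged from -0.130 without WT 3 to 0.00 without WT 1 for the TET and methylation list and -0.081 without KO 4 to -0.007 without WT 1 for the histone enzymes.

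Imprinted genes, which are expressed from 1 parental allele under DNA methylation, had 18 of 28 below WT with a median of -0.18 (-0.10 with the length trend removed). Ndn, a growth suppressor of neurons expressed from the paternal allele, stood at 170.2, 194, 286 and 235 CPM in WT and 72.3, 91.9, 115 and 66.5 in KO (log2 fold change -1.36 ± 0.28, adjusted p = 0.137), and Cobl, an actin nucleator on the list, at 137, 210.4, 126 and 93.7 and 48.3, 34.2, 90.9 and 69.0. Both had no overlap. Clustered protocadherins, the cell surface codes of single neurons, had 30 of 50 below WT (median -0.05), 8 below and 2 above at an unadjusted p below 0.05. Pcdhga6 stood at 44.8, 49.7, 60.9 and 45.7 in WT and 24.1, 19.9, 15.5 and 21.2 in KO and Pcdhga3 at 35.7 to 50.6 CPM in WT and 16.4 to 27.4 in KO, while Pcdhgb6 stood above WT at 30.4 to 48.1 CPM in WT and 51.4 to 69.4 in KO. Their transcripts end in shared constant exons, so the counts of single members are uncertain. With 1 library left out the median ranged from -0.237 without WT 4 to -0.115 without WT 3 for imprinted genes and -0.134 without WT 3 to -0.008 without WT 1 for protocadherins.

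Genes next to Tet1 did not stand apart. Of 50 tested graded genes closest to it, 25 on each side by the order in RefSeq, 4 (8.0%) had an unadjusted p below 0.05, near the 9.80% of all tested graded genes.

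**Figure D5:**
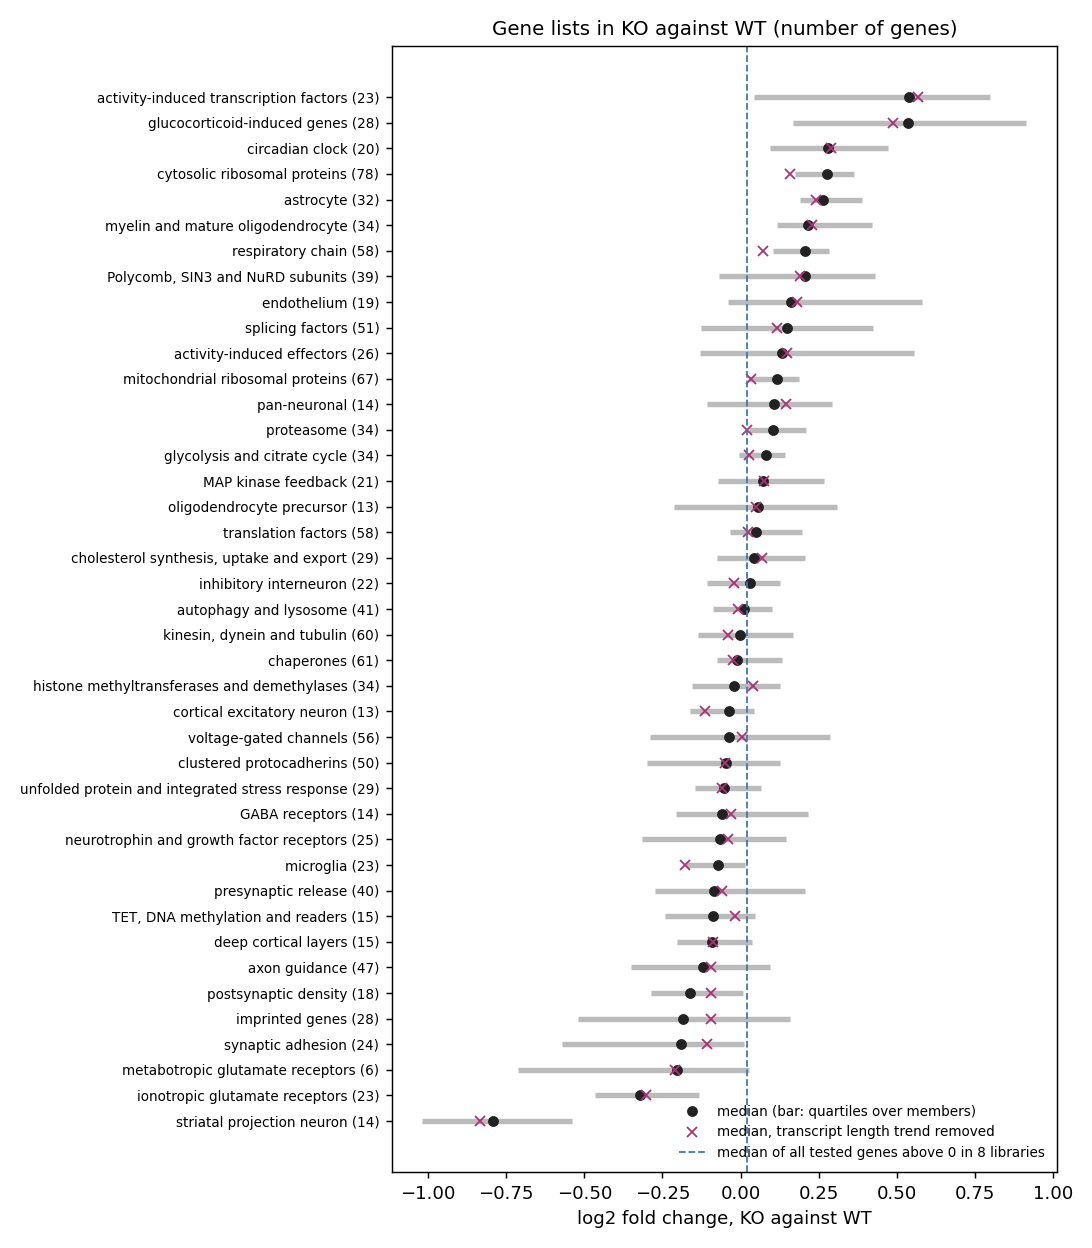
Median log2 fold change of KO against WT for 41 gene lists (black points, bars from the 25th to the 75th percentile over graded members), the same with the transcript length trend removed (crosses) and the median of all tested graded genes (dashed line). The number of graded genes stands in brackets, and activity-induced transcription factors and glucocorticoid-induced genes, both at 0.54, have the highest medians and striatal markers, at -0.79, the lowest.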

How the data were processed

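RNA was column-purified from whole cortex and mRNA selected on oligo d(T) beads, per the labels' protocols. StringTie 2.2.3, STAR 2.7.1a, SAMtools 1.9, Trim Galore 0.6.7, FastQC and the builds GRCm39 and mm10 are named, without roles, per the submitters' processing notes. How reads were assigned, their strand and any filter: not given in the sources used here. Estimated counts were deposited by the authors for each symbol in each library, not normalized and all whole numbers. The 25 symbols on several rows (56 rows) were left out.

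All 12 libraries entered 1 fit of edgeR's quasi-likelihood test (edgeR 4.0.16, R 4.3.3, robust, TMM factors, filterByExpr at 10 counts, 9 residual degrees of freedom), with genotype as the term and two-sided Benjamini-Hochberg adjusted p over 11693 genes. CPM were computed here from the deposited counts, and 0.5 was added before log2. Alternatives included limma 3.58.1 and DESeq2 1.42.0. The scripts were tested on simulated data. Totals limit counting error only.

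A gene's length was that of its longest transcript in GENCODE. The length trend was removed through lowess offsets per library. Tet1 to Tet3, called graded genes, the 12 higher and 12 lower graded genes of smallest p with no overlap and at least 5 CPM, and the 3 members of smallest p and the most abundant of each list could be named, and some genes that this rule names are not reported here. The members and lists were chosen with earlier results of these data known, so no list was tested.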

Additional observations from a re-analysis of the deposited data

Results flagged for a closer look

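Within groups of 4 libraries, 18 of 318 sets of values (CPM of named genes and scores of lists, in WT and in KO) had 1 library whose gap to the others was beyond Dixon's 95% critical share of the whole range, where chance alone gives about 1 in 20. Dnajc13 stood at 2.95 CPM in WT 2 against 9.47 to 9.82 in the other WT libraries, and Bhlhe41 stood at 85.6 CPM in WT 4 against 55.3 to 56.9 in the other WT libraries. Qdpr stood at 437 CPM in KO 4 against 252 to 256 in the other KO libraries, and Mobp stood at 73.6 CPM in WT 4 against 27.9 to 32.9 in the other WT libraries. Gjb6 stood at 97.9 CPM in WT 4 against 69.3 to 71.8 in the other WT libraries, and Bcl11b stood at 75.3 CPM in KO 4 against 102 to 106 in the other KO libraries. Actn2 stood at 9.76 CPM in KO 1 against 5.98 to 6.42 in the other KO libraries, and Scn7a stood at 4.01 CPM in WT 4 against 10.8 to 12.1 in the other WT libraries. Pcdhga3 stood at 50.6 CPM in WT 2 against 35.7 to 37.6 in the other WT libraries.

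Among list scores, the glucocorticoid-induced genes score was 0.534 in KO 1 against 0.168 to 0.220 in the other KO libraries, and the circadian clock score was -0.185 in WT 3 against -0.045 to -0.017 in the other WT libraries. The cholesterol synthesis, uptake and export score was 0.053 in WT 2 against -0.049 to -0.033 in the other WT libraries, and the myelin and mature oligodendrocyte score was 0.603 in WT 4 against -0.430 to -0.348 in the other WT libraries. The oligodendrocyte precursor score was -0.363 in WT 2 against 0.125 to 0.210 in the other WT libraries, and the pan-neuronal score was -0.174 in WT 1 against 0.033 to 0.047 in the other WT libraries. The cortical excitatory neuron score was 0.338 in WT 2 against -0.079 to -0.020 in the other WT libraries, and the cortical excitatory neuron score was 0.097 in KO 3 against -0.071 to -0.058 in the other KO libraries. The postsynaptic density score was 0.172 in WT 2 against 0.009 to 0.033 in the other WT libraries. WT 2 appears in 6 of these sets and WT 4 in 5.

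KO differed from HxD for 15 of 118 named genes (edgeR's quasi-likelihood test, adjusted p below 0.05), in a comparison that called 0.863% of tested graded genes, and the named genes were partly chosen by their KO against WT values, which use the same KO libraries. Whether HxD reads were assigned to genes as in WT and KO is not stated in the labels, so large values may not compare levels. The log2 fold change of KO against HxD was -6.73 for Tcea1, -6.56 for Dnajc13, -6.50 for Klhdc2, -4.61 for Mtf2, -5.09 for Mcfd2, -2.49 for Dnm1l, 10.72 for Pcnx3 and -2.08 for Cc2d1b. It was 1.67 for Tsc22d3, -9.26 for Lrrtm2, -0.43 for Ptpn23, 3.83 for Apc, 12.58 for Dusp1, 0.83 for Uqcr10 and -5.36 for Celf5. Pcnx3 and Dusp1 were listed at 0 in all 4 HxD libraries, so their values depend on a prior count and are no fold.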

How the results depend on the processing

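The 3 alternatives (the 8 libraries with the DESeq2 Wald test, the 8 libraries with the length trend removed, and the fit without WT 4 and KO 1) were chosen after seeing the data. Counts are given as higher and lower. Over all tested genes edgeR called 5 and 13, the DESeq2 Wald test 105 and 183 (126 and 218 on the 8 libraries), limma-voom 0 and 0, edgeR on the 8 libraries 0 and 0 with or without the length trend, the fit without the low-count filter 3 higher, a mean of at least 5 CPM 0 and 2, genes above 0 in all 12 libraries 3 lower, without WT 4 and KO 1 3 higher, an adjusted p below 0.01 0 higher and below 0.1 14 higher. Among graded genes the calls were 95 and 119 by DESeq2 (123 and 186 on the 8 libraries, with 783 lower at an unadjusted p below 0.05), 0 and 0 by limma-voom and on the 8 libraries with or without the length trend, 3 higher without the filter, 0 and 1 at 5 CPM, 3 and 6 without WT 4 and KO 1, 0 higher at 0.01, and 14 and 7 at 0.1. Leaving out 1 library gave 1 to 10 and 10 to 25 calls over all genes, 0 to 9 and 2 to 11 among graded genes, 312 to 594 higher and 385 to 642 lower at an unadjusted p below 0.05, and 319 to 791 and 380 to 884 with no overlap, the largest numbers without WT 4. Without WT 4 and KO 1, 1068 and 1140 had no overlap, which fewer libraries make easier to meet. Otherwise the cause was not tested.

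With the replicate number as a block, edgeR called 2 and 3 genes, 2 higher among graded ones, and 3 of its 4 graded calls were shared. Same-numbered WT and KO libraries deviated with correlations of -0.08 to -0.00, and differently numbered ones with -0.04 to 0.04. With deviations taken within so few libraries per genotype, these values cannot show whether same-numbered libraries shared a batch. The block moved the autophagy and lysosome median to 0.044.

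The list medians that moved by over the spread between libraries were these. For all tested graded genes the median was 0.006 with DESeq2 size factors and with the DESeq2 Wald test (also on the 8 libraries), 0.007 on the 8 libraries, 0.033 with library size only, -0.006 without the filter, 0.004 with genes above 0 in all 12 libraries, 0.001 with the length trend removed (0.004 on the 8 libraries) and 0.001 to 0.021 with 1 library left out. For autophagy and lysosome it was 0.032 with library size only, 0.045 with limma-voom, -0.015 without the filter and -0.024 to 0.042 with 1 library left out. At 5 CPM it was 0.110 for Polycomb, SIN3 and NuRD, -0.006 for metabotropic receptors and 0.084 for splicing factors. With the length trend removed it was 0.027 for glycolysis (0.031 on the 8 libraries) and, on the 8 libraries, 0.062 for histone methyltransferases and demethylases. Over steady members (at least 10 counts in all 8 libraries and under 4-fold within a genotype) it was 0.024 for Polycomb, -0.034 for the postsynaptic density and 0.043 for splicing factors. Without WT 4 and KO 1 it was 0.168 for circadian clock, 0.608 for myelin and mature oligodendrocyte, -1.269 for striatal projection neuron, -0.211 for axon guidance and 0.091 for splicing factors. With 1 library left out it ranged from -0.011 to 0.137 for pan-neuronal genes, 0.073 to 0.205 for Polycomb, -0.400 to -0.020 for metabotropic receptors, 0.076 to 0.159 for splicing factors, 0.188 to 0.342 for the clock, and -0.205 to 0.012 for the postsynaptic density. Every other alternative kept list medians within that spread.

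Of single genes, Gria2 turned sign with library size only (0.01), with the length trend removed (0.15, and 0.16 on the 8 libraries) and with 1 library left out (-0.08 to 0.03), and Tet2 with the length trend removed (0.07, and 0.08) and with 1 left out (-0.16 to 0.15).

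Depth was lowest in KO 1 and KO 4, and genes such as Mtf2 and Klhdc2 rest on few counts. Estimated counts split between transcripts and copies, and a 0 can be a failed estimate.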

Other observations

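Motor proteins and tubulins had 30 of 60 graded genes above WT and a median of 0.00, with the kinesin Kif3c below WT at 451 to 549 CPM in WT and 362 to 446 in KO and the kinesin light chain Klc2 above it at 35.2 to 53.5 CPM in WT and 48.4 to 90.3 in KO. Kif5a, the most abundant motor, stood at 7752 to 11796 CPM in WT and 8970.0 to 11666 in KO. Splicing factors had 33 of 51 above WT (median 0.15, beside 0.02 over all tested graded genes, and 0.076 without KO 2 to 0.159 without WT 1 with 1 library left out), while the neuronal splicing regulator Nova2 stood below WT at 116, 110.2, 113 and 92.4 CPM in WT and 71.6, 76.7, 72.3 and 74.99 in KO, and Celf5 at 16.2 to 38.6 CPM in WT and 4.28 to 13.4 in KO against a mean of 358 in HxD. Nova2 and Celf5 did not overlap between WT and KO (adjusted p = 0.397 and 0.144, edgeR's quasi-likelihood test).

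Genes of autophagy and the lysosome had a median of 0.01 over 41, with a sign that turned when 1 library was left out (-0.024 without WT 1 to 0.042 without KO 1), with the autophagy scramblase Atg9a at 4.79, 7.05, 8.63 and 3.61 CPM in WT and 17.6, 18.8, 22.7 and 16.9 in KO and the lysosomal membrane protein Lamp2 at 14.5 to 19.4 CPM in WT and 17.1 to 33.1 in KO. Chaperones had 34 of 61 below WT (median -0.01), and Hsp90ab1, the most abundant, stood at 1890.2 to 2151 CPM in WT and 1661 to 2056 in KO. In the unfolded protein and integrated stress responses, 14 of 17 genes of endoplasmic reticulum stress stood below WT (median -0.11), such as the calcium-binding chaperone Calr at 417 to 604 CPM in WT and 363 to 453 in KO, and 8 of 12 genes of the integrated stress response above it (median 0.13), such as the serine synthesis enzyme Phgdh at 86.0 to 121 CPM in WT and 119 to 174 in KO. Cholesterol genes had a median of 0.04 over 29, with the synthesis enzyme Msmo1 at 144, 134, 142 and 133 CPM in WT and 164, 163, 158 and 154 in KO, its regulator Insig1 at 102 to 169 CPM in WT and 166 to 222 in KO and the sterol sensor Scap at 154 to 164 CPM in WT and 131 to 149 in KO. Msmo1 and Scap had no overlap, the first above and the second below WT, and none of these genes passed the test. With 1 library left out the median ranged from -0.035 without WT 4 to 0.013 without WT 3 for chaperones, -0.097 without KO 1 to 0.006 without WT 3 for the unfolded protein and integrated stress responses and 0.014 without WT 1 to 0.070 without KO 2 for cholesterol genes. Over chromosomes, the median log2 fold change lay between -0.01 (chromosome X) and 0.05 (chromosome 17).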
